A study of Homo sapiens with 4 samples.

Results

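The canonical histone genes were followed in HT1080 cells exposed to low oxygen. A gene was taken where a probe set of the array names it alone and its symbol is that of a clustered or numbered histone gene (H1-, H2AC, H2BC, H3C or H4C followed by a digit, or the older HIST symbols), which gave 63 of the 18417 genes measured. They comprised 10 linker histone H1 genes, 14 H2A, 17 H2B, 8 H3 and 13 H4 genes, and the antisense RNA H1-10-AS1, which shares the symbol of a linker histone but encodes no histone. Of these, 57 are intact genes of the HIST loci. The others are H1-10, H1-7, H1-8, the pseudogenes H1-9P and H2BC19P, and H1-10-AS1. RefSeq lists 93 symbols of this form, and the remainder were not measured by a probe set of their own.

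HT1080 is a human fibrosarcoma line. The cells were kept in low-serum medium before and during 36 h at 1% oxygen (hypoxia) or at 21% oxygen (control). From each condition, total RNA and ER-RNA, the RNA extracted from an endoplasmic reticulum (ER) fraction isolated with a kit, were hybridised to 1 Affymetrix human Gene ST array each. The RNA of 5 experiments was pooled for each array. Replicates are therefore lacking, the spread between experiments is unknown, and differences are given without p-values. According to the study's methods, cells were treated with cycloheximide, an inhibitor of translation, shortly before fractions such as the ER were isolated. Values are log2 signals normalised by RMA.

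The core histones H2A, H2B, H3 and H4 form the protein spool around which DNA is wrapped, and linker histone H1 binds where the DNA enters and leaves it. Most of their genes lie in clusters and are transcribed mainly in S phase, when newly copied DNA has to be packed. Their mRNAs usually carry no poly(A) tail and end instead in a stem-loop that is bound by SLBP, and they are degraded quickly when DNA synthesis stops. The cDNA was primed at random, according to the labels, which does not require a poly(A) tail. Translation of histone mRNAs takes place in the cytosol, and the proteins have no signal peptide for the ER.

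The array medians were 6.34 in hypoxia and 6.25 in control for ER-RNA, and 7.49 in hypoxia and 7.41 in control for total RNA. Of 8 fibroblast or mesenchymal markers, 6 lay above the array median on all 4 arrays, VIM among them, as did 1 of 4 epithelial markers (KRT19), 0 of 3 leukocyte markers and 0 of 4 endothelial markers. A gene was regarded as expressed in a fraction if at least 1 of the 2 arrays compared placed it above the array median. It was called up or down if hypoxia and control differed by a fold of more than 1.4 and the log2 difference exceeded 3 times an SD predicted from the signal level (the z-score). This is a rule for description and not a statistical test.

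Promoters of some of the genes described further on, called and not called, are given first, because the families differ in the elements they carry. Below are 120 bases directly upstream of the annotated gene start, 5′ to 3′ on the strand of the gene, from RefSeq (GRCh38.p14). H2BC14 (chr6:27814902-27815021, plus strand) and H2BC3 (chr6:26043714-26043833, minus strand) fell in both fractions, as did H2AC15 (chr6:27838376-27838495, minus strand) and H2AC21 (chr1:149887966-149888085, minus strand). H2BC13 (chr6:27807930-27808049, minus strand) fell in total RNA, and H2BC12 (chr6:27146859-27146978, minus strand) was called in neither. Capitals mark the octamer ATTTGCAT, an element known from H2B promoters, which begins at position -48 in H2BC14, -120 in H2BC3 and -46 in H2BC12 relative to the gene start. No octamer was found in these bases of H2BC13, H2AC15 and H2AC21, which are printed without capitals, and H2AC21 carries one further upstream.
H2BC14: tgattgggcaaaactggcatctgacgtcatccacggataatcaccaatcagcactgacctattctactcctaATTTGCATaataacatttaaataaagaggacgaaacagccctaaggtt
H2BC3: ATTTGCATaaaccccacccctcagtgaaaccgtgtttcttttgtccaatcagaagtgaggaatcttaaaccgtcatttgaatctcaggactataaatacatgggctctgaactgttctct
H2BC13: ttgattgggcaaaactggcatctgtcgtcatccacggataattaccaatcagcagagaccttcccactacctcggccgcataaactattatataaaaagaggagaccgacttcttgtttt
H2BC12: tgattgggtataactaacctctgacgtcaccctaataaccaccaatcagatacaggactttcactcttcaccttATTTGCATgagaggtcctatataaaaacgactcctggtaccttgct
H2AC15: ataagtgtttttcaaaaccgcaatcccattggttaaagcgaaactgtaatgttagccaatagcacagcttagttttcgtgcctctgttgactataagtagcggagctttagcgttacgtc
H2AC21: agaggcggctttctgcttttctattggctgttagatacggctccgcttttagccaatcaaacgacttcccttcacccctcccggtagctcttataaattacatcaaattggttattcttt

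Among H4 genes, H4C8 (chr6:26285535-26285654, minus strand) was the histone gene called up, whereas H4C14 (chr1:149832537-149832656, plus strand) and H4C2 (chr6:26027284-26027403, minus strand) fell in at least 1 fraction. Capitals mark GGTCCG, a part of the H4 cell cycle element to which HINFP binds, and it begins at position -46 in all 3. These letters were searched after the H4 promoters had been seen.
H4C8: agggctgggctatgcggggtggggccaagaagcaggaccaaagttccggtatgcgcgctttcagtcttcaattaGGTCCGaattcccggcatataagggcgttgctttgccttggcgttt
H4C14: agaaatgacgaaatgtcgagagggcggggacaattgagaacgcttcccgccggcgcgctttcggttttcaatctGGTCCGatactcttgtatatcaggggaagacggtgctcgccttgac
H4C2: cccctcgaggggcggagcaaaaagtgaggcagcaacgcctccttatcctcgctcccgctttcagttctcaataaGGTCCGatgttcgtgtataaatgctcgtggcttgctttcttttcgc

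RefSeq promoters were matched for 55 of the 63 histone genes, and 250 bases upstream of each start were searched on both strands. The octamer ATTTGCAT was found in 81.2% of 16 H2B and 76.9% of 13 H2A promoters and in 0 of the H1, H3 and H4 promoters, against 1.66% of all 27305 promoters. GGTCCG was present in 90.9% of 11 H4 promoters, against 9.33% of all. CCAAT occurred in 83.6% of the histone promoters, against 33.0% of all, and TATAAA in 63.6%, against 11.1%. GGGCGG, a GC box that is common in other promoters, was found in 23.6% of histone promoters, against 42.3% of all. ACGTG, the core of the element to which hypoxia-inducible factors bind, occurred in 10.9% of histone promoters and in 0 of 11 H4 promoters including H4C8, against 18.7% of all. Matches describe letters in this window and do not show that a factor is bound. H4C14 and H4C15 have the same 250 bases.

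More histone genes were lower than higher in hypoxia in both fractions, and H4C8 was the 1 gene called up. In ER-RNA, 44 of the 63 genes were expressed, of which 14 were called down, 1 was called up and 29 were not called. Over all genes expressed in ER-RNA, 8.25% were called down and 1.12% up, whereas 31.8% of the expressed histone genes were called down. In total RNA, 38 of the 63 were expressed, of which 11 were called down, 1 up and 26 were not called. The background there was 7.45% down and 2.32% up, and 28.9% of the expressed histone genes were called down. A smaller share of cells in S phase and less histone mRNA per cell cannot be told apart in RNA from whole cultures.

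Over all 63 genes, expressed or not, the median log2 fold change (hypoxia over control) was -0.35 in ER-RNA, with 45 genes lower and 16 higher, and -0.18 in total RNA, with 40 lower and 23 higher. For all genes the medians were 0.057 (ER-RNA) and 0.026 (total RNA). Across the 63 genes the fold changes of both fractions correlated with a Pearson's r of 0.779 and a Spearman's rho of 0.703, compared with 0.733 and 0.643 for all genes. ER-RNA is a part of total RNA and genes are not independent of each other, so these coefficients only describe the arrays. Altogether 8 genes were called down in both fractions, 6 in ER-RNA alone and 3 in total RNA alone. The 8 are 57.1% of the histone genes called down in ER-RNA and 72.7% of those called down in total RNA, against 50.5% and 57.6% over all genes. These groups rest on the thresholds, and whether the fractions differ was not tested. When the SD came from the scaled median absolute deviation of the log2 ratios, 4 genes were called down in ER-RNA (9.09% of those expressed, against 2.01% of all expressed genes) and 5 in total RNA (13.2%, against 1.81%), and the rise of H4C8 was called in total RNA alone. Over all expressed genes, 0.328% were then called up in ER-RNA and 0.867% in total RNA.

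Some calls hang on the expression filter. H2AC8, H2BC19P and H2BC7 passed it in ER-RNA through the control array alone, and so had to be lower in hypoxia relative to the array median. The same applied to H2AC12, H2AC4, H2BC13, H2BC8 and H3C10 in total RNA, of which H2BC13 was called. With both arrays required to lie above the median, 11 of 39 histone genes were called down in ER-RNA (28.2%, against 7.95% of all genes) and 8 of 31 in total RNA (25.8%, against 6.96%). H4C8 was called up in each, against 1.44% and 2.41% of all genes. Coding sequences of core histone genes of 1 family can be similar, to a degree that was not measured here. Probes may therefore bind transcripts of several genes, and the values of single genes are uncertain to that extent. H4C14 and H4C15 have equal values on all 4 arrays and represent 1 signal, although both are counted. For 9 of the 63 genes the annotation overlaps that of another gene.

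**Figure D1:**
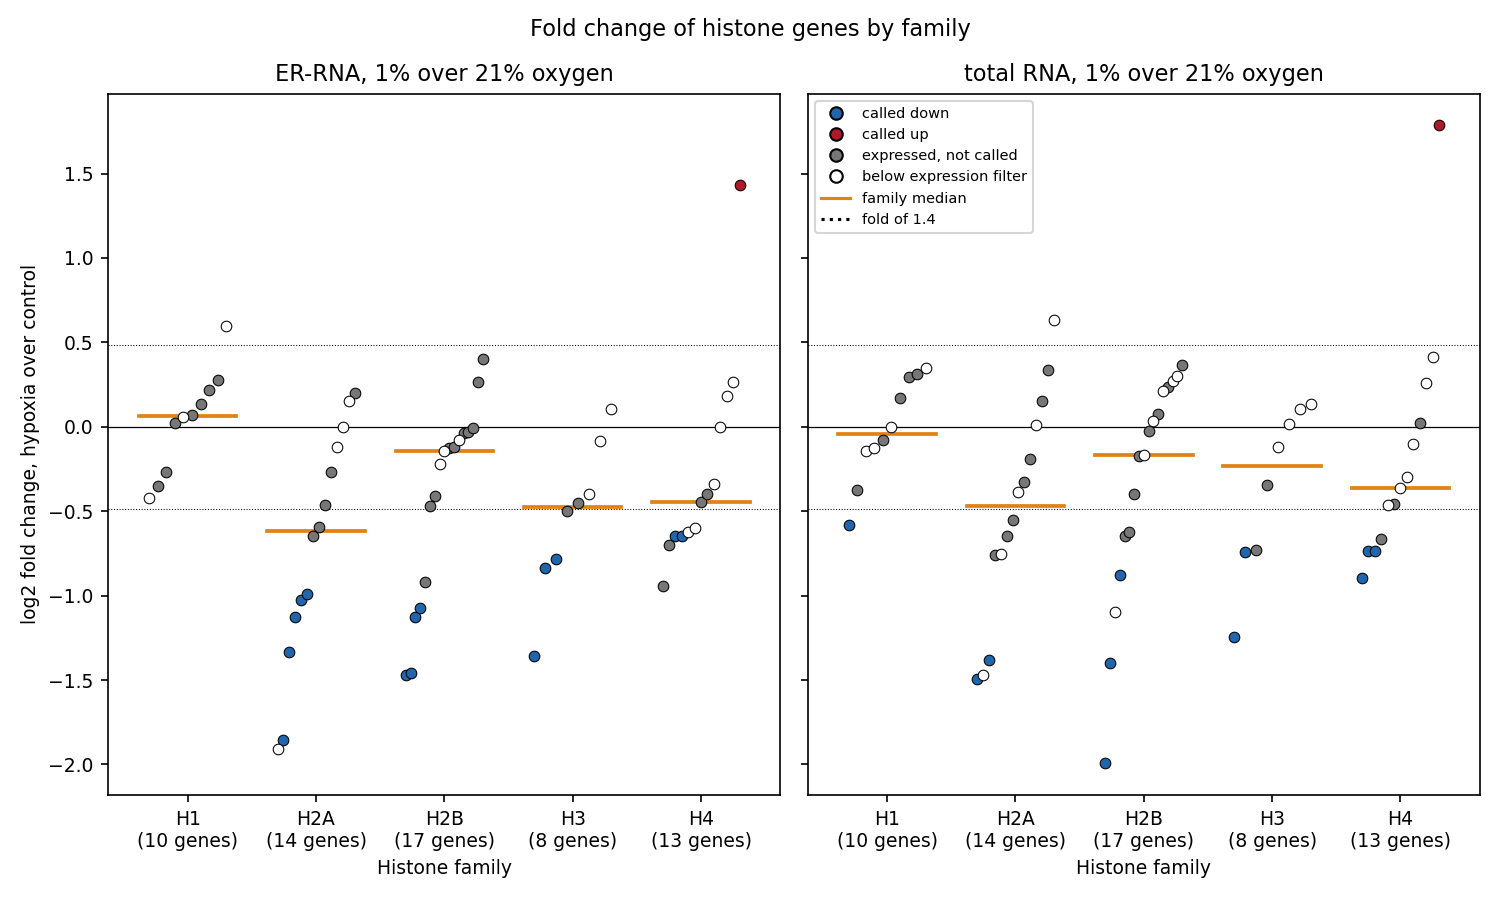
Log2 fold change (hypoxia over control, vertical axis) of each histone gene in ER-RNA (left) and total RNA (right), by family, with 1 point per gene and a bar at the family median. H2A, H3 and H4 medians lie lowest in ER-RNA (-0.62, -0.48 and -0.45), H1 genes lie around 0, and H4C8 is the point at the top right of each panel.

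Values differed between the families. H2A genes, whose proteins pair with H2B, had a median log2 fold change of -0.62 in ER-RNA and -0.47 in total RNA, with 5 of 10 expressed genes called down in ER-RNA and 2 of 9 in total RNA. H2B genes had medians of -0.14 and -0.17, with 4 of 14 and 3 of 11 called down. H3 genes had medians of -0.48 and -0.23, with 3 of 5 and 2 of 4 called down. H4 genes had medians of -0.45 and -0.36, with 2 of 7 and 3 of 7 called down and H4C8 called up. For H1 genes, the median was 0.064 in ER-RNA, which turned to -0.020 when both arrays were shifted to the same median, and -0.040 in total RNA. Of the H1 genes, 0 of 7 expressed were called down in ER-RNA and 1 of 6 in total RNA. These medians cover all genes of a family, expressed or not. Over the expressed genes alone the medians were -0.82 for H2A, -0.27 for H2B, -0.78 for H3 and -0.65 for H4 in ER-RNA. In total RNA they were -0.55, -0.40, -0.74 and -0.67, so the order of the families in total RNA depends on the filter. The expressed genes include those named above that passed the filter through the control array alone, and so had to be lower in hypoxia relative to the array median. Differences between families were not tested.

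The largest fall called in ER-RNA was that of an H2A gene, H2AC15. It had a log2 signal of 9.61 in hypoxia and 11.46 in control in ER-RNA, and of 9.002 in hypoxia and 10.50 in control in total RNA. It fell to 0.277 of control in ER-RNA and to 0.354 in total RNA. H2AC21, of the HIST2 locus, had 11.43 in hypoxia and 12.56 in control in ER-RNA, and 10.17 and 11.55 in total RNA, which equals 0.457 and 0.384 of control. H2AC15 and H2AC21 were lower in hypoxia in each fraction, and both were still called with either other scaling, either stricter filter and the other SD. Probe sets that share these genes with others gave smaller values that were not called. A set naming H2BC15 and H2AC15 had log2 fold changes of -0.29 in ER-RNA and -0.16 in total RNA, and sets naming H2AC18, H2AC19, H2AC20 and H2AC21 had -0.22 and -0.066.

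A further 3 H2A genes were called down in ER-RNA and not in total RNA. H2AC4 had 7.75 in hypoxia and 9.08 in control in ER-RNA, against 7.12 and 7.67 in total RNA (log2 fold changes of -1.33 and -0.55). H2AC13 had 10.05 and 11.05 in ER-RNA, and 9.15 and 9.80 in total RNA (-0.99 and -0.65). A probe set naming H3C10 and H2AC13 had -0.86 in ER-RNA, not called, and -0.93 in total RNA, called down. H2AC8, which was not expressed in total RNA by the filter, had 5.71 and 6.73 in ER-RNA, and 5.47 and 6.23 in total RNA (-1.03 and -0.76). It passed the filter in ER-RNA through the control array alone. All 3 were lower in hypoxia on both pairs of arrays, so that the fractions differed in the size of the value and not in its sign. At the upper end of the expressed H2A genes was H2AC25 of the HIST3 locus, with log2 fold changes of 0.20 in ER-RNA and 0.34 in total RNA, which was not called.

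H2AC14 was chosen after its values were seen. It had 3.65 in hypoxia and 5.56 in control in ER-RNA, and 4.23 and 5.70 in total RNA. The log2 fold changes of -1.91 and -1.47 are close to those of H2AC15, but all 4 signals lay below the array medians and the gene was not called.

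In the H2B family, H2BC14 changed most. It had a log2 signal of 11.90 in hypoxia and 13.37 in control in ER-RNA, and of 10.18 and 12.17 in total RNA. It fell in both fractions, with log2 fold changes of -1.47 in ER-RNA and -1.99 in total RNA, the lowest of any histone gene in total RNA, and was still called under the same settings. H2BC3 had 9.65 in hypoxia and 10.78 in control in ER-RNA, and 7.57 and 8.98 in total RNA, and fell to 0.458 and 0.378 of control. Both genes were called down in both fractions. Their promoters carry the octamer at different positions, as printed above, and promoter elements were not compared with fold changes.

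H2BC13, without an octamer in the printed window, fell in total RNA, where it had 7.37 in hypoxia and 8.24 in control (log2 fold change -0.88). In ER-RNA it had 8.60 and 9.52, and although its log2 fold change of -0.92 was no smaller, its z-score of -2.85 missed the threshold. H2BC7 was called down in ER-RNA, with 5.77 in hypoxia and 6.84 in control, and had 6.20 and 7.30 in total RNA, where it was below the filter. Its log2 fold changes were -1.07 and -1.10, so a like difference was called in 1 fraction and left out by the filter in the other.

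H2BC19P, a pseudogene of the HIST2 locus, was the gene called down whose fractions had opposite signs. It had 5.22 in hypoxia and 6.69 in control in ER-RNA (log2 fold change -1.46), against 7.497 and 7.421 in total RNA (0.076). Its ER-RNA call was lost if both arrays had to lie above the median.

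Several H2B genes were not called in their own probe sets. H2BC12 had 12.25 in hypoxia and 11.98 in control in ER-RNA, and 11.26 and 11.28 in total RNA. The annotated spans of H2BC12, H2BC21, H2BC4 and H2BC5 exceed 1000 bp, from 2224 to 13229 bp, whereas the other 12 H2B genes, pseudogene aside, span 451 to 569 bp. None of these 4 was called in either fraction by its own probe set. Their log2 fold changes ranged from -0.12 to 0.27 in ER-RNA and from -0.64 to 0.24 in total RNA. Probe sets that share some of these genes with others differed. A set naming H2BC12, H2BC12L, H2BC17 and H2BC5 had -0.33 in ER-RNA, not called, and -0.80 in total RNA, called down. A set naming H2BC18, H2BP1 and H2BC21 was called down in both fractions (-1.43 and -1.39). A set naming H2BC19P, H2BC20P and H2BC21 had -0.17 and -0.31, not called. Among the 12 short genes 3 were called down in each fraction, with ranges of -1.47 to 0.40 and of -1.99 to 0.36. The 4 longer genes had medians of -0.033 (ER-RNA) and -0.32 (total RNA), against -0.32 and -0.17 for the short ones. All 4 longer genes were expressed in both fractions. The H2B genes below the filter, 3 in ER-RNA and 6 in total RNA, were all short. They could not be called but are included in these medians, so the order of long and short genes in total RNA depends on the filter. The highest values among expressed H2B genes were those of H2BC17 in ER-RNA (0.40) and H2BC26 in total RNA (0.36), and neither was called.

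Of the H3 genes, H3C2 and H3C1 fell in both fractions. H3C2 had 11.99 in hypoxia and 12.77 in control in ER-RNA, and 9.82 and 11.06 in total RNA (log2 fold changes of -0.78 and -1.24). H3C1 had 7.90 and 9.26 in ER-RNA, and 7.74 and 8.48 in total RNA (-1.36 and -0.74). Hence the larger fall lay in total RNA for H3C2 and in ER-RNA for H3C1. H3C10 was called down in ER-RNA, with 6.68 in hypoxia and 7.51 in control (-0.83), and had 7.04 and 7.78 in total RNA (-0.73, z-score -2.50). The probe set naming H3C10 and H2AC13, by contrast, was called down in total RNA alone. Even the highest expressed H3 genes, H3C11 in ER-RNA (-0.45) and H3C3 in total RNA (-0.34), lay below 0, without being called.

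H4 was the family with calls in both directions. H4C8 had a log2 signal of 10.27 in hypoxia and 8.84 in control in ER-RNA, and of 10.20 and 8.42 in total RNA. In ER-RNA it rose 2.70-fold, and in total RNA 3.45-fold. H4C2 had 9.54 in hypoxia and 10.48 in control in ER-RNA, and 8.46 and 9.35 in total RNA. Its log2 fold change was -0.90 in total RNA, where it was called down, and -0.94 in ER-RNA, where the z-score of -2.93 fell short of the threshold.

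H4C14 and H4C15, with 1 shared set of values, had 12.26 in hypoxia and 12.90 in control in ER-RNA, and 11.32 and 12.05 in total RNA. They were called down in both fractions with log2 fold changes of -0.65 and -0.73, and the z-score of -3.00 in total RNA was at the threshold. The call in total RNA was lost with quantile normalisation, with either stricter filter, with the scaled median absolute deviation and with the mean of all probe sets of a gene. That mean left the values of these 2 genes unchanged, since each has 1 probe set naming it alone. The call was lost there only through the SD, which was fitted again over all genes. In ER-RNA the call was lost with the scaled median absolute deviation. The direction of these 2 genes depends on the probe set. Other probe sets that name both H4C14 and H4C15 had 9.43 in hypoxia and 8.71 in control in ER-RNA, and 9.91 and 9.15 in total RNA, which are log2 fold changes of 0.72 and 0.75, not called.

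None of the measured histone genes nearest to H4C8 was called. H2BC10 and H3C8, its nearest measured neighbours on that side, were below the filter in both fractions. H2BC9, a little further away, was expressed and had log2 fold changes of -0.47 in ER-RNA and -0.40 in total RNA, not called. On the other side the annotation lists an lncRNA and tRNA genes, which were not measured, and the next measured histone gene there, H2BC11, had 6.84 in hypoxia and 6.85 in control in ER-RNA, and 7.30 and 7.03 in total RNA, where it was below the filter.

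Linker histone H1-4 had 13.51 in hypoxia and 13.86 in control in ER-RNA, and 12.85 and 13.43 in total RNA. It was called down in total RNA, where it had 0.669 of the control level, whereas the ER-RNA value of 0.785 did not reach the fold threshold. H1-2 had log2 fold changes of -0.27 and -0.37 and H1-5 of 0.28 and -0.14, and neither was called. The H1 genes outside the clusters, which are not tied to S phase in the same way or are known from germ cells, had small positive values in most cases. H1-7, a linker histone of spermatids, had 0.13 in ER-RNA and 0.31 in total RNA, H1-8, the oocyte linker histone, had 0.023 and 0.30, and H1-10, a linker variant of somatic cells, had 0.070 and -0.080. None of them was called. The pseudogene H1-9P had 0.22 and 0.17 and the antisense RNA H1-10-AS1 had 0.31 and 0.32. Without the genes outside the clusters, the H1 median in ER-RNA was -0.11.

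**Figure D2:**
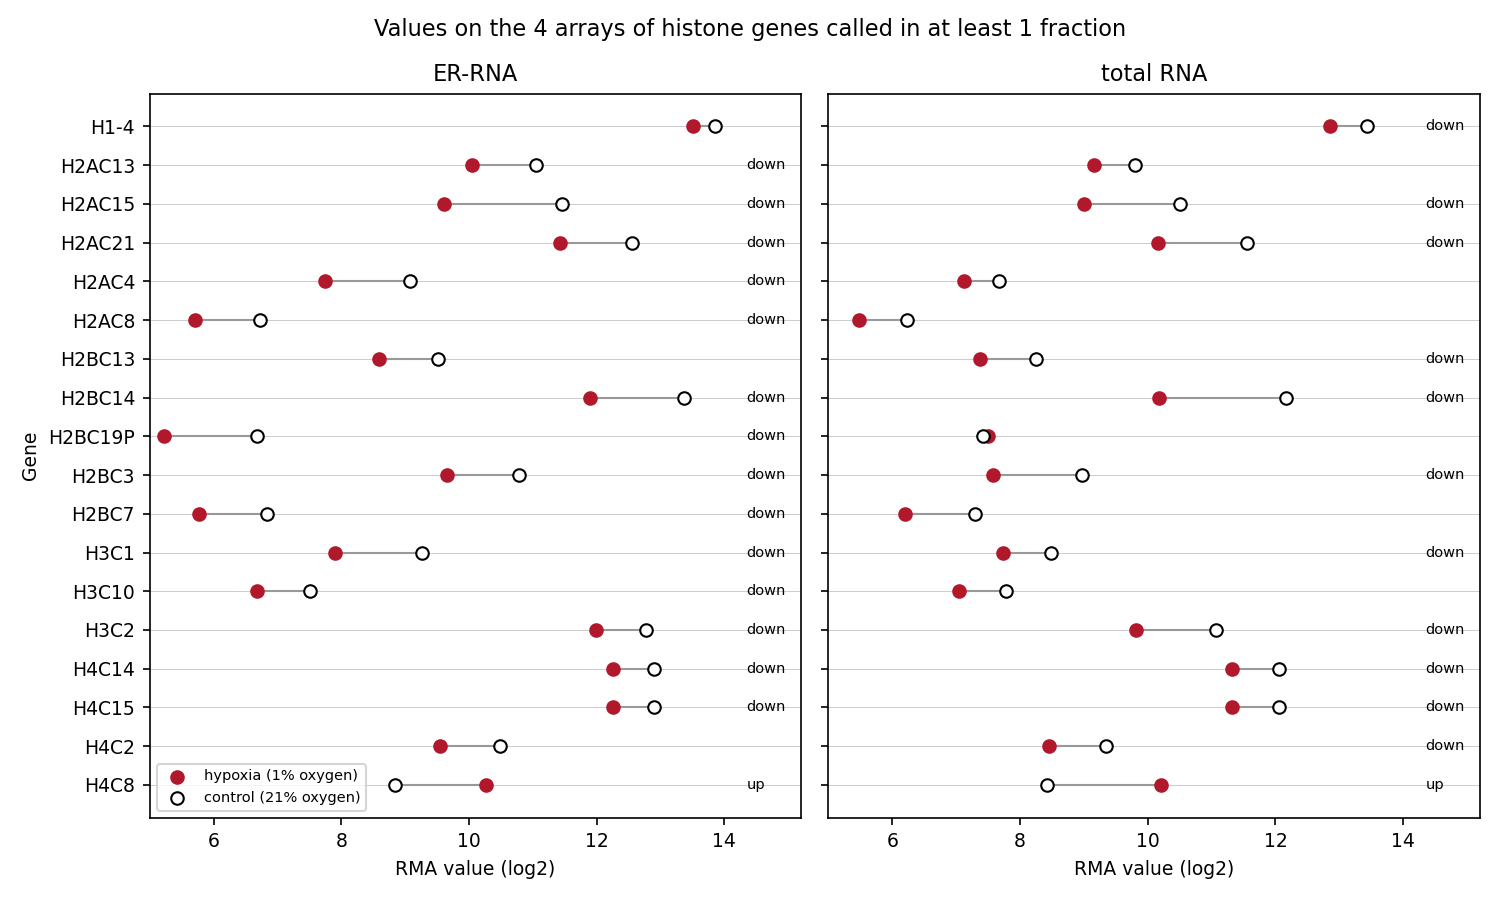
Log2 RMA values (horizontal axis) of the 18 histone genes called in at least 1 fraction, in ER-RNA (left) and total RNA (right), with hypoxia as filled and control as open points and the call at the right edge. The hypoxia point lies left of the control point for every gene except H4C8 and, in total RNA, H2BC19P, and signals of different genes are not comparable.

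The 19 genes below the filter in both fractions belonged to all families. They include H1-6, H2AC17, H2BC10, H3C12 and H4C13. Their log2 fold changes lay between -1.91 (H2AC14) and 0.60 (H1-1) in ER-RNA and between -1.47 (H2AC14) and 0.63 (H2AC17) in total RNA. In H2AC17 and H4C6, the values of both ER-RNA arrays were equal, as they were for 267 of all genes. Another 6 genes, H1-5, H2AC8, H2BC11, H2BC17, H2BC7 and H3C11, were expressed in ER-RNA and not in total RNA, and 0 were expressed in total RNA alone.

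Histone genes without a probe set of their own could be followed only in groups, and some of these groups include genes described above. The set for H3C10 and H2AC13 names such genes alone, so the counts below do not describe the otherwise unmeasured genes alone. There were 20 probe sets that name several genes including a histone, 19 of them histones alone, and these gave 16 different sets of values. In both fractions 15 of these 16 were expressed and 0 were called up. In ER-RNA 5 were called down and 15 were lower in hypoxia (median -0.65), and in total RNA 9 were called down and 15 were lower (median -0.80). The share called down over all probe sets that name several genes was not computed, so these counts have no background. Several of the sets also name the same genes and are not separate signals. A set for H2BC18 and H2BP1 had 5.75 in hypoxia and 7.24 in control in ER-RNA, and 7.79 and 9.33 in total RNA, with log2 fold changes of -1.49 and -1.54. Another for H3C13, H3C14 and H3C15 had 11.92 and 12.71 in ER-RNA, and 10.25 and 11.67 in total RNA (-0.79 and -1.42). Both examples were called down in each fraction and were picked after their values were seen.

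Most histone genes measured lie on chromosome 6 in the HIST1 locus. Of its 49 genes, 31 were expressed in ER-RNA, with 10 called down and 1 up, and 25 in total RNA, with 8 called down and 1 up. The medians over all 49 were -0.40 and -0.30. Of the 6 genes in HIST2 on chromosome 1, all expressed in both fractions, 4 were called down in ER-RNA and 3 in total RNA, with medians of -0.65 and -0.73, where H4C14 and H4C15 are 1 signal and H2BC19P is a pseudogene. The 2 genes of HIST3 on chromosome 1 and the 1 gene of HIST4 on chromosome 12 had 0 calls. Over all expressed genes, 8.25% were called down and 1.12% up in ER-RNA, and 7.45% and 2.32% in total RNA. Among the genes counted as called down, some passed the filter through the control array alone. These were H2AC8, H2BC7 and H2BC19P in ER-RNA and H2BC13 in total RNA. Along HIST1, genes that were called lay in part side by side. Of the 6 consecutive measured genes H3C1, H4C1, H4C2, H3C2, H2AC4 and H2BC3, all but H4C1 were called down in at least 1 fraction. Likewise, of H2BC13, H2AC13, H3C10, H2AC14, H2BC14 and H2AC15, all but the unexpressed H2AC14 were called down in at least 1 fraction. These stretches were noticed in the data and not tested.

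**Figure D3:**
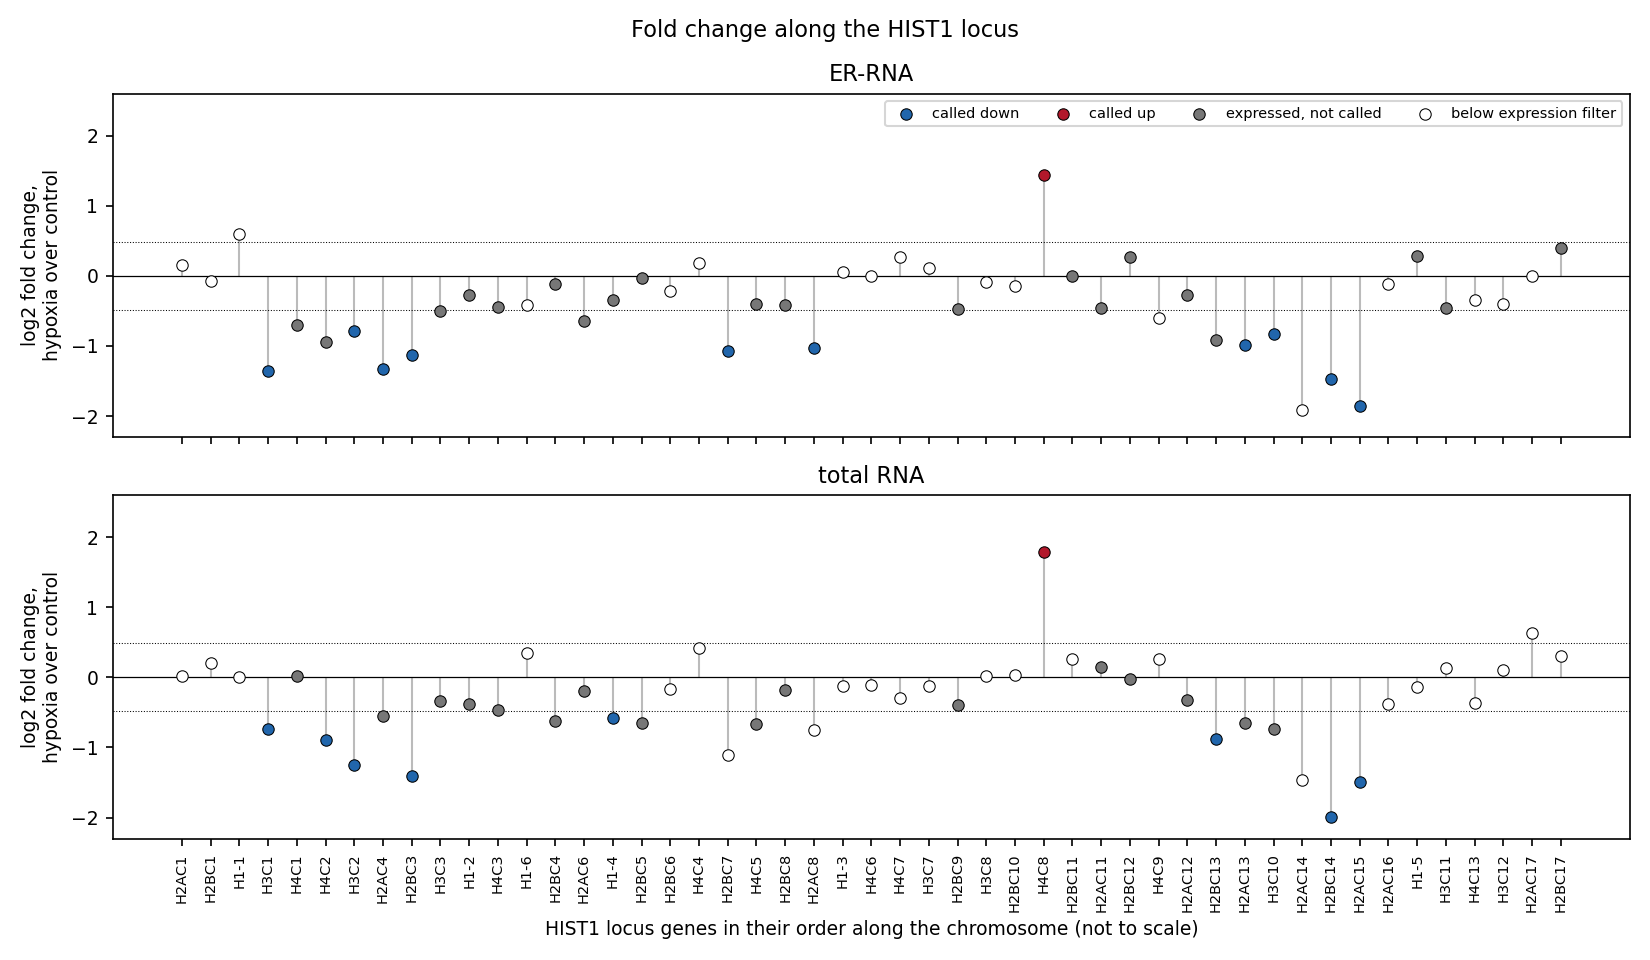
Log2 fold change (hypoxia over control, vertical axis) of the 49 measured HIST1 genes in their order along the chromosome (not to scale), in ER-RNA (top) and total RNA (bottom), with the dotted lines at a fold of 1.4. Most genes called down lie between H3C1 and H2BC3 or between H2BC13 and H2AC15, with H1-4, H2BC7 and H2AC8 apart from them, and H4C8 is the 1 gene called up.

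The position of histone transcripts relative to the ER fraction was described by the log2 difference of ER-RNA over total RNA on the arrays of the same condition. The fractions do not share a scale, so that only differences between gene groups can be read. Over all genes this difference had a median of -1.09 in hypoxia and -1.11 in control, and for the 63 histone genes -0.37 and -0.18, values that became 0.78 and 0.97 after the arrays were shifted to the same median. Of the histone genes, 49 in hypoxia and 52 in control lay above the median of all genes. Among the 38 expressed in total RNA the median was 0.61 in hypoxia and 0.66 in control, against -1.08 and -1.07 for all genes expressed in total RNA.

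Among genes with a total RNA control value above 9, 17 histone genes had medians of 0.99 in hypoxia and 0.96 in control, against -1.22 and -1.15 for 4984 genes. All 17 lay above the median of all genes in each condition, and H3C2 among them had differences of 2.17 in hypoxia and 1.71 in control. H2BC3, whose total RNA control value lies just under 9, had 2.077 and 1.802. By contrast, the median was -1.86 in hypoxia and -2.18 in control for 12 genes of ER-lumen and secreted proteins, which are translated at the ER, and -0.26 and -0.14 for 12 genes of cytosolic proteins. Genes known to be translated at the ER thus lay lowest of these groups, so a high value is not read here as a position at the ER. The 25 histone genes below the filter in total RNA had medians of -0.93 and -0.88, close to those of all genes. The treatment with cycloheximide and the fraction cannot be told apart in this design.

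**Figure D4:**
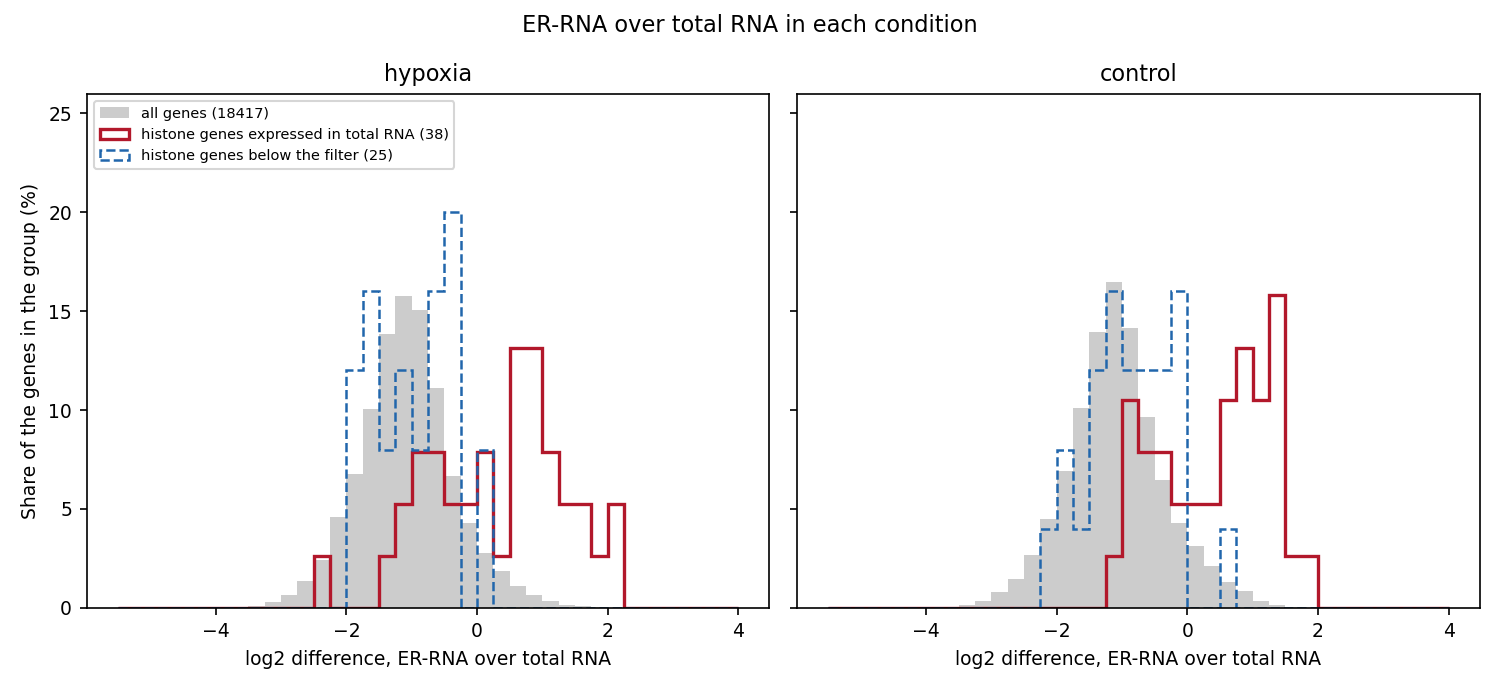
Share of genes (%, vertical axis) by log2 difference of ER-RNA over total RNA (horizontal axis) in hypoxia (left) and control (right), for all 18417 genes, the 38 histone genes expressed in total RNA and the 25 below the filter. The expressed histone genes extend to the right of the bulk of all genes in both conditions, with medians of 0.61 and 0.66 against -1.09 and -1.11, and the zero point of the axis depends on scaling.

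By family, ER-RNA over total RNA was highest in H2A and H4, with medians of 0.12 in hypoxia and 0.28 in control for H2A and of -0.10 and 0.42 for H4. For H2B it was -0.36 and -0.18, for H3 -0.78 and -0.35, and for H1 -0.89 and -0.89. Within families the spread was wider than that between them, since H3 genes ranged from -1.65 (H3C8) to 2.17 (H3C2) in hypoxia.

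Lists of genes that make and handle histones, or that act in S phase, had negative medians as well. Of 12 genes for transcription and 3′ processing of histone mRNAs, all expressed in ER-RNA and 10 in total RNA, 3 were called down and 0 up in each fraction, with medians of -0.52 in ER-RNA and -0.29 in total RNA. The 3 were the same in both, namely CPSF3, the endonuclease that cleaves pre-mRNA (-1.10 and -0.89), its partner CPSF2 (-1.31 and -0.96) and CSTF2 (-1.06 and -0.85), and all of them also take part in 3′ processing of polyadenylated mRNAs. The other 9 were not called, among them the stem-loop binding protein SLBP, with 9.52 in hypoxia and 9.86 in control in ER-RNA and 9.09 and 9.50 in total RNA, and the co-activator NPAT (-0.51 and -0.18). HINFP, which binds H4 promoters, had 0.28 and 0.19.

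Of 15 histone chaperones and related factors, all expressed in both fractions, 4 were called down and 0 up in each fraction (medians -0.53 in ER-RNA and -0.35 in total RNA). ASF1A, a chaperone for H3 and H4, had 8.03 in hypoxia and 9.79 in control in ER-RNA, and 7.996 and 9.321 in total RNA, and fell to 0.294 and 0.399 of control. HAT1, which acetylates newly made H4, fell to 0.426 and 0.538, and CHAF1B, a subunit of chromatin assembly factor 1, to 0.498 and 0.438. SUPT16H was called in ER-RNA alone and ASF1B in total RNA alone.

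Of 8 measured genes on a list of histone variants, which include the member H1-10, 1 of 8 expressed was called down in ER-RNA and 2 of 6 in total RNA, and 0 were called up. H2AZ1, an H2A variant made throughout the cell cycle, fell to 0.439 of control in ER-RNA and to 0.440 in total RNA. H2AX, the variant phosphorylated at DNA breaks, had log2 fold changes of -0.85 in ER-RNA, not called, and -0.999 in total RNA, where it fell.

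S phase genes are of interest because canonical histone mRNAs accumulate in that phase. Of the 21 measured, 17 were expressed in ER-RNA, with 5 called down, and 19 in total RNA, with 4 called down, and 0 were called up, with medians of -0.69 and -0.58. PCNA, the sliding clamp of DNA polymerases, had 8.18 in hypoxia and 9.50 in control in ER-RNA, and 8.10 and 9.19 in total RNA (-1.32 and -1.08). Cyclin A2 (CCNA2), with -1.22 and -1.08, and the large ribonucleotide reductase subunit RRM1, with -1.07 and -1.04, also fell in both fractions, as did MCM6. CCNE2 was called in ER-RNA alone. The percentages of all expressed genes called down, 8.25% and 7.45%, serve as background for these lists too, and the part of the cell cycle in the histone values was not tested.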

How the data were processed

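HT1080 total RNA and ER-RNA from hypoxia and control, pooled from 5 experiments, were measured on 4 arrays, 1 per condition and fraction. The authors deposited log2 values normalised by RMA, and Partek 6.4 is listed in the processing notes of the submitters. No source used here states whether the 4 arrays entered 1 normalisation. Depth does not apply to arrays, and their number limits the precision.

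Gene names came from the platform annotation, updated by gene identifier through RefSeq for 19429 of 19460 probe sets that name 1 gene. Per gene the probe set with the highest mean was used, and each histone gene had 1. Genes were called with R 4.3.3 at a fold over 1.4 and a z-score over 3. The SD was read from a loess curve (span 0.75, degree 2) of the SD of each pair of arrays on its mean. The curve was fitted over the probe sets that passed the expression filter, and this model is a reading of the study's methods. The rule was run on simulated pairs, where it had to recover large changes at signals well above the median. That does not bear on smaller changes or on signals near the filter. A probe set was kept if at least 1 array of the pair exceeded its 50% quantile. Quantile normalisation, an alternative, used limma 3.58.1. Other alternatives changed the scaling, the filter, the SD, the threshold and the genes included, and 2 were added after seeing the data.

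Named were the genes called, the highest and lowest expressed fold change and signal per family and fraction, expressed members outside the clusters, and up to 3 called genes per direction and list. Signals of different probe sets were not compared. Members and lists were chosen with earlier results of these data known. Polysome, RT-qPCR and protein data of the study were not analysed here.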

Additional observations from a re-analysis of the deposited data

Results flagged for a closer look

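H2BC19P, a pseudogene, was singled out because its log2 fold change (hypoxia over control) had opposite signs in the fractions, with -1.46 in ER-RNA and 0.076 in total RNA. With 1 array per condition in each fraction, this difference was not tested. The gene passed the expression filter in ER-RNA through the control array alone.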

How the results depend on the processing

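No paired analysis was possible because each condition and fraction had 1 array, and no replicate could be left out for the same reason. Of the values recomputed, 78 stayed within the margins (1.5 times for counts, 0.1 on the log2 scale for medians), 19 moved beyond them and 7 changed sign. Some of the 78 could not move. Each histone gene had 1 probe set, so medians stayed the same with the mean of all probe sets of a gene. Medians of H2A, H3 and H4 could not change without genes outside the HIST loci, since these families have none. The 78 are therefore not a measure of stability. The cause was not tested in any case.

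Genes called down in total RNA numbered 11 (28.9% of those expressed, against 7.45% of all expressed genes). They numbered 5 with a 75% quantile filter and 18 by fold alone. With the SD from the scaled median absolute deviation they numbered 5 (13.2%, against 1.81%). A count of 19 signals was reached when probe sets naming several histones were added and equal values counted once, both chosen after seeing the data. With the scaled deviation, 4 genes were called down (9.09%, against 2.01%) and 0 up (against 0.328%) in ER-RNA. Without the filter, 2 were called up in total RNA, H2AC17 beside H4C8. Shares over all genes were not computed for the 75% filter, for fold alone, without the filter or with probe sets naming several histones. Those counts show how the calls depend on the setting and are not read as results about histone genes.

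With members that passed the filter alone, total RNA medians were -0.43 (all), 0.045 (H1), -0.40 (H2B), -0.74 (H3) and -0.67 (H4), and ER-RNA medians -0.46 (all), -0.82 (H2A), -0.27 (H2B), -0.78 (H3) and -0.65 (H4). Some of these members passed through the control array alone. Without genes outside the HIST loci the median was -0.33 in total RNA (all) and -0.11 in ER-RNA (H1). In ER-RNA, a shift to equal medians gave -0.020 for H1, and quantile normalisation gave -0.46 for H2A and -0.27 for H2B. ER-RNA over total RNA, for all histone genes, became 0.78 in hypoxia and 0.97 in control with the shift, and 0.86 and 0.97 with quantile normalisation.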
